A study of Mus musculus with 56 samples.

Results

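The genes described here encode the matrix metalloproteinases (Mmp), their tissue inhibitors (Timp) and the Adamts proteases. They were taken from the RNA-seq table by symbol, as Mmp, Timp or Adamts followed by a number with an optional final letter, a rule that uses no measured value, although the family was chosen with earlier results of these data known. This gave 46 genes of the 22308 entries of the table: 23 Mmp, 4 Timp and 19 Adamts genes.

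Mmp enzymes are zinc proteases that cut collagens, elastin and other matrix proteins, and most are released as inactive precursors that other proteases activate. Timp proteins block their active sites, so the balance of both sets of genes is commonly followed in liver fibrosis. Adamts enzymes are related secreted proteases that trim procollagens, cut proteoglycans or cut von Willebrand factor. In liver, stellate cells, macrophages and bile duct cells are known sources of many of these enzymes, while hepatocytes make few of them.

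RNA-seq of poly-A RNA was made from 14 mouse livers of the 129Sv/J background, with 1 library per liver. Floxed mice carry loxP sites around the miR-122 precursor, and the uninjected ones (day 0, n = 3) are the control. Floxed mice given an rAAV with Cre under the Ef1a promoter, which is active in many cell types, were studied at day 21 (n = 3), day 45 (n = 3), day 100 (n = 1) and day 200 (n = 1), and germline miR-122 knockout mice (n = 3) were added. The knockout mice are a separate line that is not floxed, and no wild-type liver is in the RNA-seq, so that the lack of miR-122 since before birth and the line of mice cannot be told apart. No RNA-seq liver is labelled as given a vector without Cre, so that the vector and the loss of miR-122 cannot be told apart either. Age and sex of the mice are not given in the labels.

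miR-122 was 59.2 to 73.3% of the microRNA reads in the small RNA libraries of the 3 uninjected livers. It was 8.22 to 13.2% at day 21, 0.383 to 1.23% at day 45, 4.46% at day 100 and 19.1% at day 200. No small RNA library of the knockout livers was used here. FPKM do not give fragment numbers, so the depth of each library is not known directly, and the steps between low values put it at roughly 21400000 to 26900000 fragments in the knockout and 32400000 to 46800000 in the other groups. Albumin (Alb), the main hepatocyte product, is listed at 0 in all 14 livers, so a value of 0 in this table may be a failed estimate and is given below as listed at 0. Serpina1c, also a hepatocyte product, is listed at 0 in 11 of the 14 livers. The other 5 hepatocyte markers, Apoa1, Ttr, Tat, Cps1 and Cyp2e1, were above 0 in every liver. Knockout replicate C stood apart: without it the number of genes called in the knockout against day 0 went from 3833 to 7088.

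Of the 46 genes, 17 had a mean of at least 1 FPKM over the 14 livers and were tested, 29 were below it, and 1 of these, Mmp1a, is listed at 0 in every liver. Adamts5 lay just above this limit, at a mean of 1.04 FPKM, and Mmp11 just below, at 0.958 FPKM. Of the 17 tested genes, 7 had a day 0 mean under 1 FPKM (Adamts5, Adamts9, Adamts10, Mmp7, Mmp12, Mmp23 and Timp1), so that they entered the test through the livers where they were high. The main counts are therefore also given for the 10 genes that reach 1 FPKM at day 0.

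Among the 23 Mmp genes, 10 lie side by side on chromosome 9, between bases 7272513 and 7699416 of mm9, with no other protein-coding gene lying whole within this stretch in the GENCODE annotation of that build. In order these are Mmp13, Mmp12, Mmp1b, Mmp3, Mmp1a, Mmp10, Mmp8, Mmp27, Mmp20 and Mmp7. The binding motif of AP-1, a factor known for driving Mmp promoters, was searched as TGACTCA on both strands, where its other strand reads TGAGTCA, in RefSeq promoters of build GRCm38.p6 that run from 250 bases before to 50 bases after each start. It was found in 7 of the 32 genes of the family that are in that table (21.9%) and in 5.95% of all 27025 symbols. All 7 lie in the chromosome 9 group, between 35 and 93 bases before the start. The stretches of 29 bases around it are shown for the 2 members of this group that were tested, for Mmp13, and for Mmp1a, which carries the motif and is listed at 0 in all livers. The capitals mark the motif.
Mmp7, chr9:7692016-7692044, plus strand: aagtgtgcaaaTGAGTCAcctatttccac
Mmp12, chr9:7347319-7347347, plus strand: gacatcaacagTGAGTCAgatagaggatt
Mmp13, chr9:7272468-7272496, plus strand: ccccaaagtggTGACTCAtcactatcatg
Mmp1a, chr9:7464057-7464085, plus strand: gttgtcaaccaTGAGTCAcatagcctctg

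The letters were present both in promoters of genes that were high in these livers and in those of genes near 0. The Ets motif AGGAAGT was found in 6 of the 32 genes (18.8%, against 10.7% of all symbols), Timp1 and Timp4 among them, and TATAAA in 11 (34.4%, against 15.7%).

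The 17 tested genes moved mostly upward after the loss of miR-122. At day 45, 12 of 17 were higher than at day 0 and none was lower, where 23.7% of all 11354 tested genes were higher. At day 21, 1 of 17 was higher (all tested genes, 6.2%), at days 100 and 200 as 1 group 14 of 17 (28.4%), and in the knockout 10 of 17 (19.3%). None of the 17 was called lower than day 0 by limma in any of them, in the same order of days 21, 45, 100 with 200 and the knockout against 1.42%, 2.99%, 3.21% and 14.5% of all tested genes, and none was lower at an unadjusted p under 0.05. The median difference in log2(FPKM + 1) of the 17 genes was 0.65, 1.28, 1.65 and 0.88 in these 4 comparisons, against 0.06, 0.20, 0.31 and 0.02 over all tested genes. For the 10 genes that reach 1 FPKM at day 0 it was 0.44, 0.94, 1.28 and 0.87, against 0.03, 0.15, 0.26 and -0.05 over all genes that do. All 4 comparisons share the 3 day 0 livers, so they are not independent of each other. In a fit of the genes with a day 0 mean of at least 1 FPKM, 0, 5, 7 and 6 of the 10 genes that reach it were higher in the same order, against 4.69%, 17.1%, 21.3% and 14.9% of all 10383 genes of that fit.

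**Figure D1:**
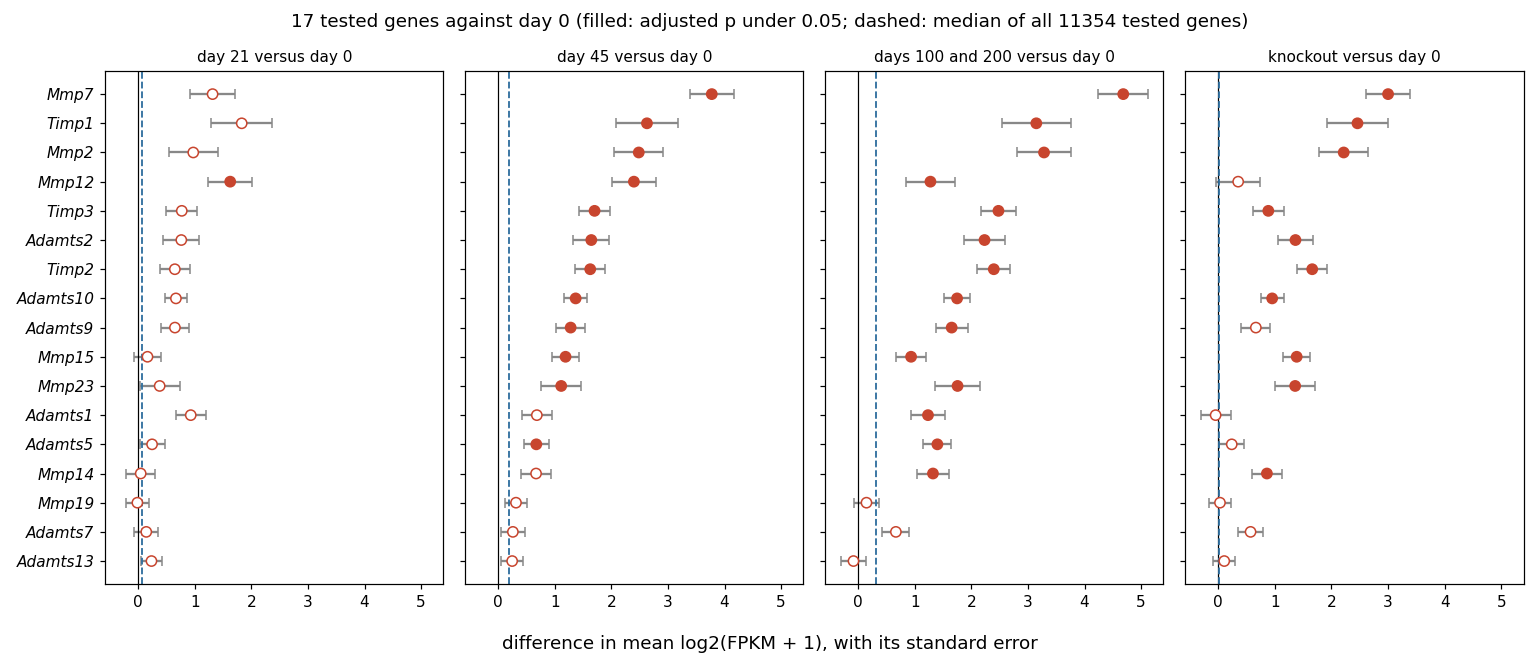
Difference in mean log2(FPKM + 1) from day 0 (horizontal axis, bars are the standard error) for the 17 tested genes in 4 comparisons, filled where the adjusted p is under 0.05, with the median of all 11354 tested genes as a dashed line. At day 45 all 17 points lie above 0, from 0.25 for Adamts13 to 3.77 for Mmp7.

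The tested gene with the largest difference at day 45, at days 100 and 200 and in the knockout was Mmp7 (chr9:7692110-7699416), which encodes matrilysin, a small protease made by epithelial cells. It shares 123 exon bases with AV064505 on the opposite strand, for which no FPKM was used here, and the sources used here do not state whether strand was used in counting. Its level was 0.267, 0.226 and 0.252 FPKM at day 0, and 1.99, 0.969 and 4.10 FPKM at day 21. It was 9.99, 30.1 and 13.6 FPKM at day 45, 23.4 FPKM at day 100 and 41.0 FPKM at day 200, and 7.77, 12.0 and 7.74 FPKM in the knockout. No liver of another group overlapped day 0, and the day 45 livers lay above all those of day 21. On the log2(FPKM + 1) scale, which understates the change of such a low gene, Mmp7 was higher by 3.77 ± 0.39 at day 45 (SE, adjusted p = 0.000139), by 4.68 ± 0.44 at days 100 and 200 (adjusted p = 5.07e-05) and by 3.00 ± 0.39 in the knockout (adjusted p = 0.000341). At day 21 the difference of 1.32 ± 0.39 missed the threshold (adjusted p = 0.0631). The mean FPKM itself was 72.0 times that of day 0 at day 45 (47.4 times without day 45 replicate B) and 36.9 times in the knockout, with day 0 values that stand for only about 10.3 to 13.4 fragments per library.

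The direct comparison of day 45 with day 21 also called Mmp7, by 2.46 ± 0.39 (adjusted p = 0.0291). It was the only one of the 17 genes called there, where 0.273% of all tested genes were higher. The call was lost without any 1 of the 3 day 0 livers, without any 1 of the 3 day 21 livers, and without day 45 replicate B or C, with the difference between 2.03 and 2.82 over all libraries left out in turn. It was also lost without a filter (adjusted p = 0.0615) and with only the compared libraries (adjusted p = 0.0796). The livers of the same letter deviated together in these 2 groups, and with the letter as a block the adjusted p was 0.0747, or 0.105 with the livers of days 21 and 45 alone, an alternative chosen after seeing the data.

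Mmp12, macrophage elastase (chr9:7347373-7360461), followed another course. It was 0.124, 0.088 and 0.089 FPKM at day 0, 0.987, 1.77 and 6.14 at day 21, and 4.27, 3.78 and 6.74 at day 45. It was 2.85 FPKM at day 100, 0.845 at day 200, and 0.337, 0.461 and 0.417 in the knockout. All day 21 and day 45 livers lay above day 0, and the knockout livers lay between day 0 and every injected liver. Mmp12 was higher by 2.40 ± 0.39 at day 45 (adjusted p = 0.00131), and in the knockout by 0.35 ± 0.39, which did not pass (adjusted p = 0.495). It was the only one of the 17 tested genes called at day 21, by 1.63 ± 0.39 (adjusted p = 0.0271). That call was lost without any 1 of the 3 day 0 livers, without day 21 replicate B or without replicate C, where the difference was 1.09. At days 100 and 200 the difference of 1.28 ± 0.44 was called (adjusted p = 0.0428), and it was lost without 9 of the 14 libraries, among them day 100, without which it was 0.75.

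Between the knockout and day 45, Mmp12 was the only one of the 17 genes that was called, lower in the knockout by 2.05 on the log2(FPKM + 1) scale (SE 0.39, adjusted p = 0.0115), where 8.23% of all tested genes were lower. The mean FPKM at day 45 was 12.2 times that of the knockout. The call was lost without day 45 replicate C, at an adjusted p of 0.0527. In the fit without a filter, 3 of 45 genes were lower (all genes, 6.01%): Mmp12, the collagenase Mmp13, by 0.80 ± 0.16 (adjusted p = 0.0199), and Mmp27, by 0.94 ± 0.10 (adjusted p = 0.000534). Mmp13 was 0.832, 0.891 and 0.806 FPKM at day 45 against 0.044, 0.033 and 0.092 in the knockout, and Mmp27 was 1.32, 1.37 and 1.55 against 0.255, 0.257 and 0.265. Neither gene overlapped between both groups.

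The summed level of 8 macrophage markers was 225 to 408 FPKM at day 0, 574 to 758 at day 21, 800 to 900 at day 45, 837 and 1023 at days 100 and 200, and 288 to 804 in the knockout. Of these 8 markers, 3 were higher at day 21, all 8 at day 45, 5 at days 100 and 200 and 4 in the knockout. The shares of all tested genes that were higher were 6.2%, 23.7%, 28.4% and 19.3% in that order. The sums at days 100 and 200 held 525 and 724 FPKM of Lyz2, against 279 to 342 at day 45, whereas the Kupffer cell markers Clec4f and Cd5l were at 79.1 and 72.0 FPKM and at 104 and 128 FPKM, against 148 to 160 and 232 to 235 at day 45. In bulk tissue, fewer cells of a type and less RNA per cell cannot be told apart. The 7 listed neutrophil markers summed to 131 FPKM in day 21 replicate C, the highest liver of its group for Mmp12, Mmp7 and Timp1, and to 43.0 and 40.5 FPKM in replicates A and B. The part of these cells in the Mmp results was not tested.

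**Figure D2:**
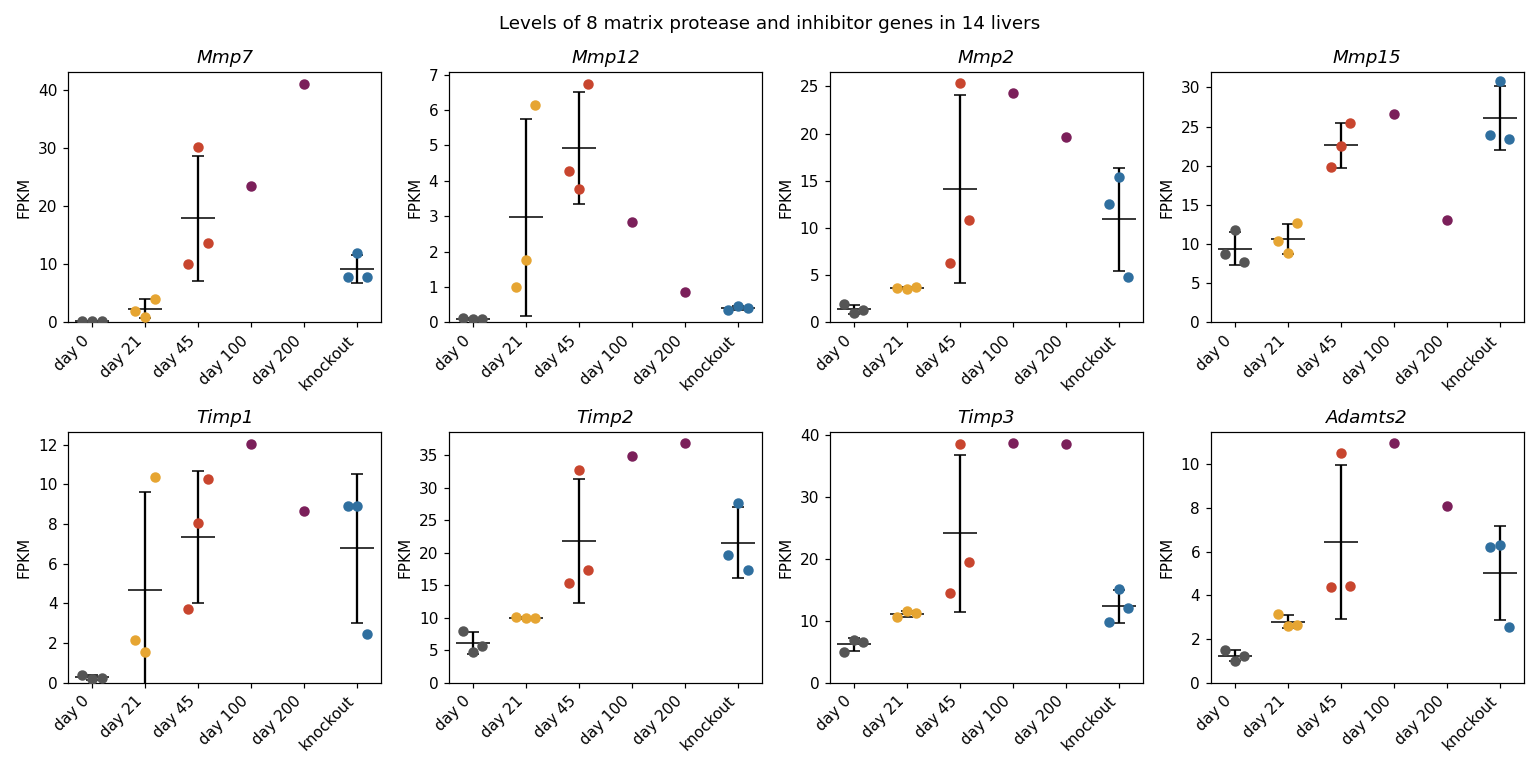
FPKM of 8 genes in each of the 14 livers (points), with the mean and SD of the groups of 3 (black, the bar of Timp1 at day 21 is drawn only down to 0). All 8 genes lie above day 0 in every liver from day 45 on and in the knockout, and all but Mmp15 also in every day 21 liver. The knockout livers lie near the day 21 livers for Timp3, and Mmp12 is between 0.337 and 0.461 FPKM in the knockout.

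The gelatinase Mmp2 (chr8:95351226-95377319), which cuts denatured collagen and basement membrane and is made by stellate cells, was 1.90, 0.961 and 1.26 FPKM at day 0. It was 3.61, 3.49 and 3.72 FPKM at day 21, 6.25, 25.3 and 10.8 at day 45, 24.3 at day 100, 19.6 at day 200, and 12.6, 15.4 and 4.82 in the knockout. Every other group lay above day 0 in every liver. Mmp2 was higher by 2.48 ± 0.43 at day 45 (adjusted p = 0.00168), by 3.28 ± 0.48 at days 100 and 200 (adjusted p = 0.000421) and by 2.22 ± 0.43 in the knockout (adjusted p = 0.00336). At day 21 the 3 livers were close to each other, yet the difference of 0.97 ± 0.43 did not pass (adjusted p = 0.207). Day 45 replicate B was the highest of its group for Mmp2 and for 13 of the 17 tested genes, and without it the day 45 mean of Mmp2 was 8.53 instead of 14.1 FPKM. The other gelatinase, Mmp9, which neutrophils store, stayed below the limit for the test, at 0.108 to 0.286 FPKM at day 0 and at most 1.68 FPKM, in knockout replicate A. Without a filter it was higher at days 100 and 200 (0.98 ± 0.26, adjusted p = 0.0141) and in the knockout (0.78 ± 0.23, adjusted p = 0.0357).

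Of the 6 Mmp genes classed here as membrane-bound, which leaves out the membrane-anchored Mmp23, 2 were tested. Mmp14 (MT1-MMP), which activates the Mmp2 precursor at the cell surface, was among the most abundant genes of the family, at 20.1, 12.0 and 22.3 FPKM at day 0, 19.0, 17.9 and 17.7 at day 21, 23.8, 42.3 and 23.0 at day 45, 52.0 and 39.6 at days 100 and 200, and 31.5, 38.8 and 28.6 in the knockout. All day 45 and knockout livers and both late livers lay above day 0, while those of day 21 lay within its range. Mmp14 was higher by 1.32 ± 0.29 at days 100 and 200 (adjusted p = 0.00414), a call lost without day 100, and by 0.86 ± 0.26 in the knockout (adjusted p = 0.0245), a call lost without day 0 replicate B, knockout replicate A or knockout replicate B. At day 45 the difference of 0.67 ± 0.26 did not pass (adjusted p = 0.0747), and it was 0.39 without day 45 replicate B and 0.41 without day 0 replicate B.

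Mmp15 (MT2-MMP), a membrane-bound relative of Mmp14, was 8.77, 11.8 and 7.69 FPKM at day 0 and 10.4, 8.89 and 12.7 at day 21. It was 19.8, 22.5 and 25.4 FPKM at day 45, 26.6 at day 100, 13.0 at day 200, and 24.0, 30.8 and 23.4 in the knockout. The day 45 and knockout livers all lay above day 0, and day 21 overlapped it. The gene was higher by 1.19 ± 0.24 at day 45 (adjusted p = 0.00384) and by 1.39 ± 0.24 in the knockout (adjusted p = 0.00198). The difference of 0.93 ± 0.27 at days 100 and 200 (adjusted p = 0.0198) was lost without day 0 replicate A or C and without day 100, where it was 0.45. The other 4 genes of this class were low. Mmp24 was the one that moved most among them, from at most 0.009 FPKM at day 0 to 1.49 and 1.33 FPKM at days 100 and 200, but it shares 637 exon bases with BC029722 on the opposite strand, which was at 9.09 to 49.7 FPKM.

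Mmp19, a protease of many tissues, was the most abundant Mmp gene at day 0 and passed no test. It was 31.8, 23.8 and 34.2 FPKM at day 0, 40.2, 27.1 and 23.0 at day 21, 37.8, 39.0 and 34.4 at day 45, 35.5 and 30.3 at days 100 and 200, and 31.4, 27.9 and 31.6 in the knockout. The difference at day 45 was 0.32 ± 0.20 (adjusted p = 0.285) and that in the knockout 0.03 ± 0.20 (adjusted p = 0.914). The sign of the small differences at day 21, at days 100 and 200 and in the knockout turned with single libraries or with centring. Mmp19 shares 789 exon bases with 1110012D08Rik on the opposite strand, at 1.92 to 4.03 FPKM. Mmp23, a membrane-anchored Mmp with an unusual structure, was 1.13, 0.375 and 0.625 FPKM at day 0, 1.16, 0.905 and 1.54 at day 21, 2.04, 3.68 and 2.39 at day 45, 4.32 and 5.05 at days 100 and 200, and 4.60, 5.71 and 1.13 in the knockout. It was above day 0 in all livers of day 45 and of days 100 and 200, and knockout replicate C was level with the highest day 0 liver. Its difference of 1.76 ± 0.39 at days 100 and 200 was called (adjusted p = 0.00485). The call at day 45 (1.11 ± 0.35, adjusted p = 0.0338) was lost without day 0 replicate B or C or day 45 replicate B or C, and the one in the knockout (1.36 ± 0.35, adjusted p = 0.0131) without day 0 replicate B or knockout replicate A or B.

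The collagenases and stromelysins were low, at 2.21 FPKM at most. Mmp13, the main interstitial collagenase of mice, was 0.154, 0.074 and 0.099 FPKM at day 0, and between 0.575 and 1.499 FPKM at day 21 and 0.806 and 0.891 FPKM at day 45. In the fit without a filter it was higher at day 21 (0.75 ± 0.16, adjusted p = 0.0280), at day 45 (0.73 ± 0.16, adjusted p = 0.00937) and at days 100 and 200 (0.61 ± 0.18, adjusted p = 0.0247). The neutrophil collagenase Mmp8 was at most 0.879 FPKM, at day 200, and 0.017 to 0.044 FPKM at day 0, and without a filter it was higher at days 100 and 200 (adjusted p = 0.00342) and in the knockout (adjusted p = 0.00665). Mmp1b was never above 0.013 FPKM. Of the stromelysins, Mmp3 reached 0.449 and Mmp10 0.055 FPKM at most, and Mmp11 was 0.337 to 0.481 FPKM at day 0, 0.808 to 1.94 FPKM at day 45 and 1.80 and 2.21 FPKM at days 100 and 200. Without a filter Mmp11 was higher at day 45 (0.66 ± 0.17, adjusted p = 0.0175) and at days 100 and 200 (1.08 ± 0.19, adjusted p = 0.00186).

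The Timp genes were tested for Timp1, Timp2 and Timp3. Timp1 (chrX:20447291-20451863), the inducible inhibitor that rises in fibrotic liver, was 0.406, 0.165 and 0.244 FPKM at day 0 and 2.15, 1.56 and 10.4 at day 21. It was 3.72, 8.06 and 10.3 FPKM at day 45, 12.0 and 8.68 at days 100 and 200, and 8.93, 8.92 and 2.44 in the knockout. No other liver came down to the day 0 range, although day 21 replicate C alone was as high as the highest day 45 liver. Timp1 was higher by 2.63 ± 0.54 at day 45 (adjusted p = 0.00395), by 3.15 ± 0.60 at days 100 and 200 (adjusted p = 0.00197) and by 2.46 ± 0.54 in the knockout (adjusted p = 0.00628). At day 21 the difference was 1.83 ± 0.54 (adjusted p = 0.0608). Without replicate C the day 21 mean was 1.86 instead of 4.69 FPKM, and the difference was the lowest of all libraries left out, at 1.16.

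Timp2 (chr11:118162374-118216725), which inhibits Mmp2 and also takes part in its activation by Mmp14, was 8.02, 4.73 and 5.67 FPKM at day 0 and 10.1, 9.90 and 9.95 at day 21. It was 15.3, 32.7 and 17.4 FPKM at day 45, 34.8 and 37.0 at days 100 and 200, and 19.7, 27.7 and 17.3 in the knockout. The day 21 livers lay just above day 0, and all later and knockout livers above day 21. Timp2 was higher by 1.63 ± 0.26 at day 45 (adjusted p = 0.00125), by 2.40 ± 0.29 at days 100 and 200 (adjusted p = 0.000164) and by 1.66 ± 0.26 in the knockout (adjusted p = 0.00109).

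Timp3 (chr10:85763156-85812250), which binds to the matrix and also inhibits Adamts and Adam proteases, was 4.99, 6.86 and 6.60 FPKM at day 0 and 10.6, 11.55 and 11.3 at day 21. It was 14.4, 38.4 and 19.4 FPKM at day 45, 38.7 and 38.4 at days 100 and 200, and 9.81, 15.1 and 12.0 in the knockout. No group overlapped day 0, and the knockout livers lay near the day 21 level rather than that of days 100 and 200. Timp3 was higher by 1.70 ± 0.28 at day 45 (adjusted p = 0.00131) and by 2.48 ± 0.31 at days 100 and 200 (adjusted p = 0.000181). The knockout difference of 0.88 ± 0.28 (adjusted p = 0.0291) was lost without any 1 of the 3 day 0 livers or without knockout replicate B, and that between the knockout and day 45, of -0.82 ± 0.28, did not pass (adjusted p = 0.0676). Timp1, Timp3 and Timp4 each lie inside a synapsin gene on the opposite strand, Syn1, Syn3 and Syn2, which were at most 0.227, 0.337 and 0.382 FPKM. Timp3 shares 1733 exon bases with Syn3, while Timp1 and Timp4 share 0 with Syn1 and Syn2. Timp4 was listed at 0 in 7 of the 14 livers and reached 0.485 FPKM at most, at day 200, with 0.48 FPKM in knockout replicate B. Without a filter it was higher at days 100 and 200 (0.41 ± 0.13, adjusted p = 0.0319) and was not called in the knockout.

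Timp3 is on the study's list of predicted targets of miR-21, Adamts2 on that of miR-122 and Mmp14 on that of miR-410. The seed of miR-122 was not searched in any gene, since its sequence was not among those used here. The sequence of miR-21a-5p (RefSeq, GRCm38.p6, seed at bases 2 to 8 in capitals) and the 1 stretch of the Timp3 3′ UTR in the GENCODE annotation that matches the seed, at base 2325 of 3604 (capitals), are shown to place that list entry.
mmu-miR-21a-5p: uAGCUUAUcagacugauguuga
Timp3, chr10:85810961-85810989 of mm9, plus strand: ttgagctttcaATAAGCTatagctttgtt

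The same 7 letters were in the longest 3′ UTR of 6.1% of 19915 genes and of 4 of the 46 genes (Adamts6, Adamts20, Timp2 and Timp3). Timp2 and Timp3 were both higher at day 45, and Adamts6 and Adamts20 were too low to be tested. The match is a description of the sequence only.

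**Figure D3:**
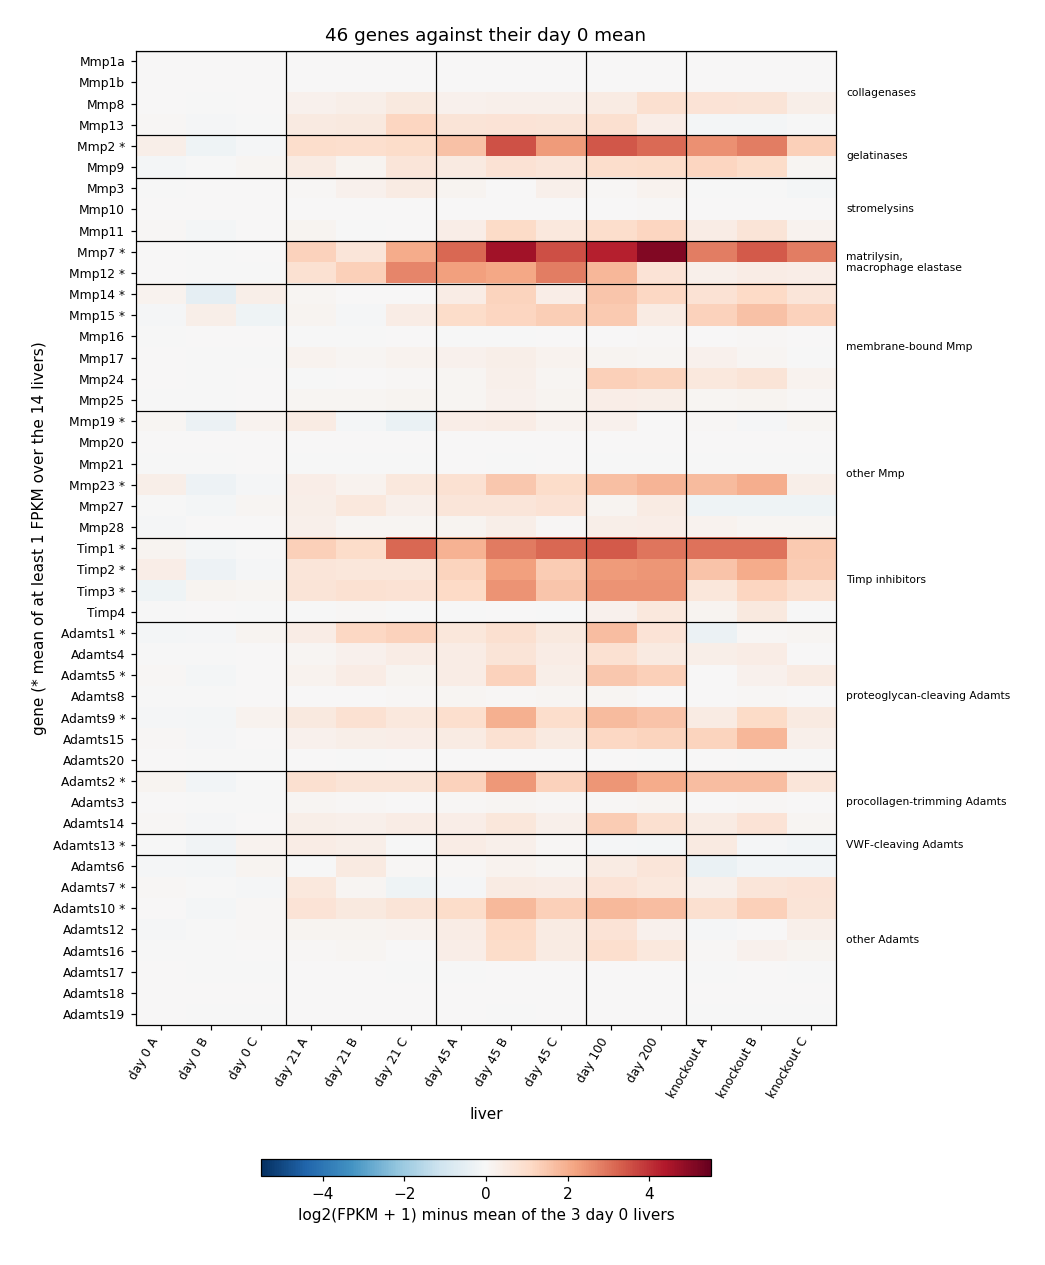
Log2(FPKM + 1) of all 46 genes in the 14 livers, minus the mean of the 3 day 0 livers, ordered by role (labels at the right, stars mark the 17 tested genes). Mmp7 is darkest, Mmp2, Timp1 and Mmp12 follow, Timp4 is pale in all livers, and many genes are near white because they stay close to 0 FPKM. Day 45 replicate B is the highest of its group for 13 of the 17 tested genes, and replicate C for Mmp12, Mmp15 and Timp1.

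Among the Adamts genes, the procollagen N-proteinase Adamts2 (chr11:50415586-50617551), which removes the amino end of procollagens I and III, was 1.499, 0.977 and 1.22 FPKM at day 0 and 3.12, 2.59 and 2.63 at day 21. It was 4.37, 10.52 and 4.43 FPKM at day 45, 10.97 and 8.10 at days 100 and 200, and 6.23, 6.31 and 2.54 in the knockout. No group overlapped day 0, and knockout replicate C lay near the day 21 livers. Adamts2 was higher by 1.65 ± 0.32 at day 45 (adjusted p = 0.00284), by 2.23 ± 0.35 at days 100 and 200 (adjusted p = 0.000643) and by 1.36 ± 0.32 in the knockout (adjusted p = 0.00819). Its relatives Adamts3 and Adamts14 were not tested. Adamts3 was at most 0.129 FPKM, and Adamts14 was 0.155 to 0.249 FPKM at day 0 and 2.16 and 1.203 FPKM at days 100 and 200.

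Of the 7 proteoglycan-cleaving Adamts genes, 3 were tested. Adamts1, which cuts versican and aggrecan, was 2.85, 2.97 and 3.59 FPKM at day 0, 4.40, 7.999 and 9.002 at day 21, 5.38, 6.61 and 4.997 at day 45, 12.4 and 6.04 at days 100 and 200, and 2.27, 3.37 and 3.47 in the knockout. All injected livers lay above day 0, and the knockout overlapped it. The difference passed at days 100 and 200 (1.23 ± 0.30, adjusted p = 0.00711), where it was lost without day 100, and did not pass at day 21 (0.93 ± 0.26, adjusted p = 0.0519), at day 45 (0.68 ± 0.26, adjusted p = 0.0756) or in the knockout (-0.05 ± 0.26, adjusted p = 0.902).

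Adamts9, a versican-cleaving enzyme, was 0.328, 0.312 and 0.591 FPKM at day 0, 1.04, 1.53 and 1.07 at day 21, 1.68, 4.41 and 1.75 at day 45, 3.65 and 3.19 at days 100 and 200, and 0.925, 1.90 and 0.977 in the knockout. Adamts5, the main aggrecan-cleaving enzyme of cartilage, was 0.473, 0.291 and 0.426 FPKM at day 0, 0.583, 0.832 and 0.562 at day 21, 0.867, 2.39 and 0.742 at day 45, 2.89 and 2.47 at days 100 and 200, and 0.421, 0.658 and 0.889 in the knockout. All injected livers lay above day 0 in both genes, and the knockout overlapped day 0 only for Adamts5. Adamts9 was higher by 1.28 ± 0.25 at day 45 (adjusted p = 0.00331) and by 1.65 ± 0.28 at days 100 and 200 (adjusted p = 0.00102). It was 0.66 ± 0.25 above day 0 in the knockout, which did not pass (adjusted p = 0.0600). Adamts5 was higher by 1.40 ± 0.25 at days 100 and 200 (adjusted p = 0.00121). Its call at day 45 (0.67 ± 0.22, adjusted p = 0.0400) was lost without day 45 replicate B, where the difference was 0.37, and without any 1 of the day 0 or day 21 livers, day 100, day 200 or knockout replicate B. Part of the Adamts9 exons, 1381 bases, also belongs to A730049H05Rik on the opposite strand.

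Adamts10, an enzyme tied to fibrillin microfibrils, was 0.936, 0.776 and 0.96 FPKM at day 0, 2.21, 1.71 and 2.10 at day 21, 2.77, 5.49 and 3.75 at day 45, 5.47 and 5.21 at days 100 and 200, and 2.43, 3.66 and 2.06 in the knockout. No group overlapped day 0. It was higher by 1.37 ± 0.20 at day 45 (adjusted p = 0.000825), by 1.75 ± 0.23 at days 100 and 200 (adjusted p = 0.00021) and by 0.95 ± 0.20 in the knockout (adjusted p = 0.00522). Adamts13, which cuts von Willebrand factor and is known as a product of hepatic stellate cells, was 0.893 to 1.48 FPKM at day 0, 1.24 to 1.91 at day 45 and 0.973 to 2.05 in the knockout, and passed no test. Adamts7 passed none in the main fit either, with 0.67 ± 0.24 at days 100 and 200 (adjusted p = 0.0503) and 0.57 ± 0.21 in the knockout (adjusted p = 0.0557). It was called at days 100 and 200 with only the compared libraries. The same held without day 21 replicate A or C, day 45 replicate A, or knockout replicate A or C. In the knockout it was called with median-centring and without day 21 replicate A or C.

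The 29 untested genes were low throughout. Of these, 11 never reached 0.1 FPKM, 8 reached 0.1 but not 1 FPKM, and 10 reached 1 FPKM in at least 1 liver. In the fit without a filter, 10 of them were higher at day 45, 14 at days 100 and 200, 5 in the knockout and 4 at day 21, and none was called lower than day 0, against 2.28%, 2.43%, 8.33% and 0.952% of all genes in that order. Mmp27 was 0.352 to 0.6 FPKM at day 0 and 0.255 to 0.265 in the knockout, and Adamts6 0.334 to 0.582 and 0.091 to 0.272, without overlap between the groups, and neither difference passed (adjusted p = 0.114 and 0.18). Together with the others, 22, 27, 15 and 5 of 45 genes were higher, against 22%, 30.3%, 15.4% and 3.94% of all 17758 genes above 0. Mmp24 at days 100 and 200 (1.26 ± 0.11, adjusted p = 8.07e-05), Adamts15, which cuts proteoglycans, in the knockout (1.10 ± 0.29, adjusted p = 0.0211) and Mmp27 at day 45 (0.72 ± 0.10, adjusted p = 0.00156) were among these, on the log2(FPKM + 1) scale.

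The calls that did not rest on any 1 library were counted by leaving out each of the 14 in turn. At day 45, 10 of the 12 held in every case: Mmp2, Mmp7, Mmp12, Mmp15, Timp1, Timp2, Timp3, Adamts2, Adamts9 and Adamts10. At days 100 and 200, 10 of the 14 held, and in the knockout 7 of the 10: Mmp2, Mmp7, Mmp15, Timp1, Timp2, Adamts2 and Adamts10. The call at day 21 did not hold. Of all tested genes called higher, 58.1% held in every case at day 45, 45.5% at days 100 and 200, 47.2% in the knockout and 23.7% at day 21. Of the 10 genes that reach 1 FPKM at day 0, 5 of the 5 called held at day 45, 4 of 7 at days 100 and 200 and 4 of 6 in the knockout. The number of genes of the family called at day 21 was 5 without day 45 replicate B or without knockout replicate C, and 0 without any 1 day 0 liver or without day 21 replicate B or C.

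The libraries differed in their overall level, since the median difference of all tested genes was 0.20 at day 45 and 0.31 at days 100 and 200. When each library was centred on its own median, the share of calls that were higher went from 88.8 to 67.4% at day 45, from 89.8 to 64.3% at days 100 and 200, and from 12.8 to 45.9% between the knockout and day 45. The number of the 17 genes called was then 1, 10, 12 and 12 in the 4 comparisons with day 0, and all of these calls were higher, against 5.19%, 14.5%, 15.7% and 19.1% of all tested genes called higher after centring. Of the 10 genes that reach 1 FPKM at day 0, 0, 5, 6 and 7 were called after centring.

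Markers of the cells known to make these enzymes moved as well. The summed level of 9 stellate cell and fibroblast markers was 144 to 196 FPKM at day 0, 296 to 316 at day 21, 391 to 631 at day 45, 639 and 660 at days 100 and 200, and 200 to 325 in the knockout. At day 45, 8 of the 9 were higher, and in the knockout 5. Of all tested genes, 6.2% were higher at day 21, 23.7% at day 45, 28.4% at days 100 and 200 and 19.3% in the knockout. These shares also stand beside the marker lists that follow. The summed level of 5 cholangiocyte markers (Krt19, Krt7, Epcam, Sox9 and Spp1) was 46.1 to 59.2 FPKM at day 0, 137 to 203 at day 21, 405, 1330 and 697 in replicates A, B and C of day 45, 2920 and 1920 at days 100 and 200, and 551 to 794 in the knockout. Spp1 made up most of each of these sums, at 383, 1259 and 654 FPKM at day 45 and 2866 and 1854 FPKM at days 100 and 200. At day 21, 2 of the 5 were higher, Spp1 and Epcam, and Spp1 alone was 129 to 195 FPKM of the sum. All 5 were higher at day 45, at days 100 and 200 and in the knockout. Day 45 replicate B had the highest sum of its group in both lists, as it had for 13 of the 17 tested genes. In knockout replicate C, the lowest of its group for Timp1, Mmp2, Mmp23 and Adamts2, the neutrophil markers summed to 30.7 FPKM against 159 and 129 in replicates A and B, while the stellate cell and fibroblast sum was the highest of the group, at 325 FPKM against 200 and 237. Most of that sum was Dcn (245 FPKM against 108 and 118), and 5 of the 9 markers (Acta2, Des, Pdgfrb, Col1a1 and Col3a1) were at the lowest level of the group in replicate C. The cholangiocyte sum of that liver, of which Spp1 makes up most, was 551 FPKM against 556 and 794, and its Krt19 level was 3.35 FPKM against 23.7 and 25.4. None of the markers of these 4 lists was at 0 in all livers of a group. Of the 6 tested hepatocyte markers none was called at days 21 and 45, and Apoa1 was lower at days 100 and 200. The 1 called higher in the knockout was Serpina1c, a call that rests on values listed at 0 in all day 0 livers and in knockout replicate C. The summed level of the 5 hepatocyte markers above 0 in every liver was 25904 to 28680 FPKM at day 0, 24700 to 25570 at day 21, 19672 to 26111 at day 45, 13793 and 22649 at days 100 and 200, and 22794 to 30149 in the knockout. Of 2 mesothelial markers none was called in any of the 4 comparisons with day 0. Of the endothelial list, 2 of 6 were higher at day 45 and 2 of 6 lower in the knockout, where 14.5% of all tested genes were lower. Of the lymphocyte list, 4 of 5 were higher at day 45 and 1 of 5 in the knockout. The part of any of these cells in the results was not tested.

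**Figure D4:**
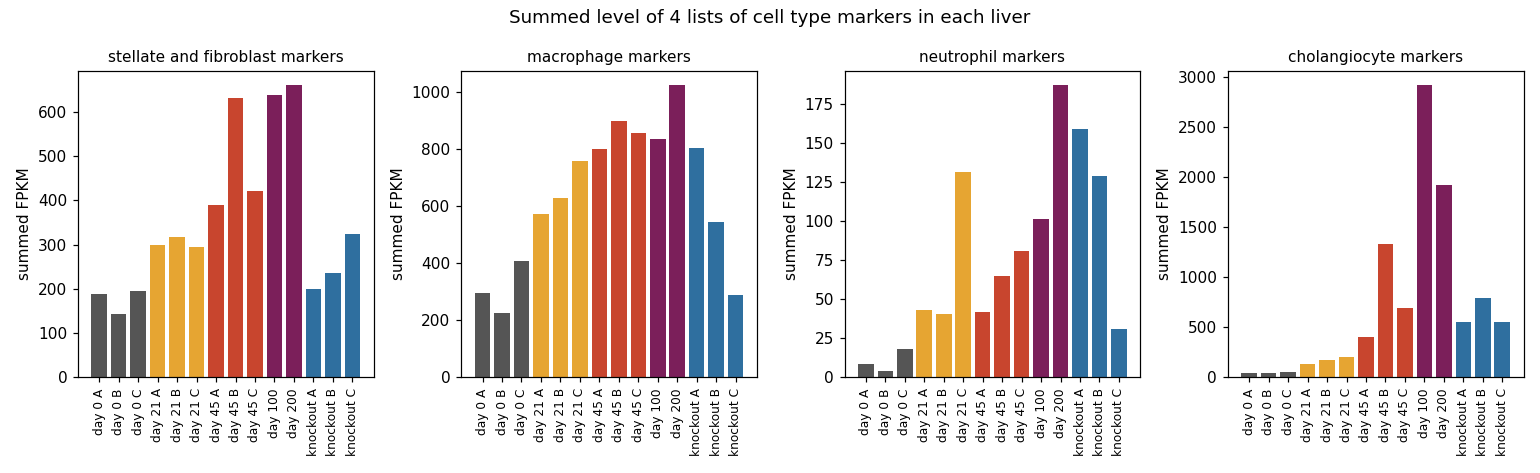
Summed FPKM of 4 lists of cell type markers (9 stellate and fibroblast, 8 macrophage, 7 neutrophil and 5 cholangiocyte genes) in each of the 14 livers. Day 45 replicate B has the highest stellate and cholangiocyte bars of its group, and knockout replicate C has the lowest macrophage and neutrophil bars of its group but the highest stellate bar, of which Dcn makes up 245 FPKM, while 5 of the 9 stellate and fibroblast markers are lowest there.

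Many transcripts of the matrix proteins that these enzymes act on were higher as well. Of 14 tested substrate genes, 13 passed at day 45 (all tested genes, 23.7%) and 12 at days 100 and 200 (28.4%). In the knockout 9 passed (19.3%) and at day 21 1 (6.2%), and none was lower. The largest differences at day 45 were those of Eln (elastin, 3.63 ± 0.54, adjusted p = 0.000881), Col3a1 (3.12 ± 0.42, adjusted p = 0.000568) and Col1a1 (2.73 ± 0.52, adjusted p = 0.00261). The fibrillar collagen Col1a1 was 0.942, 0.648 and 0.881 FPKM at day 0, 7.20, 22.9 and 7.91 at day 45, and 10.2, 16.6 and 2.64 in the knockout, so that the same replicate was the highest at day 45 and the lowest in the knockout as for Adamts2.

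In the plasminogen system, which activates several Mmp precursors, 3 of 8 genes were higher and 1 lower at day 45 (all tested genes, 23.7% and 2.99%). Those higher were the tissue activator Plat (2.203 ± 0.46, adjusted p = 0.00432), the urokinase receptor Plaur (1.32 ± 0.36, adjusted p = 0.0170) and urokinase, Plau (1.09 ± 0.17, adjusted p = 0.00115). Plasminogen itself, Plg, which hepatocytes make, was lower by 0.84 on the log2(FPKM + 1) scale (SE 0.16, adjusted p = 0.00276). In the knockout 3 were higher and 1 lower (all tested genes, 19.3% and 14.5%).

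The Adam genes encode relatives of the Adamts enzymes, most of them membrane-bound. Of 5 tested Adam genes, 4 were higher at day 45 (all tested genes, 23.7%), led by Adam15 (1.61 ± 0.26, adjusted p = 0.00123), Adamdec1 (1.19 ± 0.24, adjusted p = 0.00341) and Adam10 (1.12 ± 0.31, adjusted p = 0.0185). In the knockout 2 were higher and 1 was lower (all tested genes, 19.3% and 14.5%). Of 2 tested Adamts-like genes, which encode proteins without a protease domain, Adamtsl2 was higher at day 45 (2.56 ± 0.44, adjusted p = 0.00168) and the other was not called.

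Of 14 tested genes of other inhibitors and regulators, 4 were higher at day 45 (all tested genes, 23.7%) and none lower. In the knockout 4 were higher and 3 lower, against 19.3% and 14.5% of all tested genes. The largest differences at day 45 were those of Pcolce, which enhances the trimming of the carboxyl end of procollagen (1.70 ± 0.44, adjusted p = 0.0138), and the thrombospondins Thbs2 (1.21 ± 0.23, adjusted p = 0.00242) and Thbs1 (1.14 ± 0.31, adjusted p = 0.0180). The median difference of this list at day 45 was 0.25, close to the 0.20 of all tested genes. Of 10 cathepsins, the lysosomal proteases, 2 were higher at day 45 (all tested genes, 23.7%): Ctss (1.90 ± 0.25, adjusted p = 0.000516) and Ctsk (1.58 ± 0.26, adjusted p = 0.00127), and the list's median of 0.27 was also near that of all genes.

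Of 13 tested genes for cytokines and transcription factors that are known to induce Mmp and Timp genes, 8 were higher at day 45, 9 at days 100 and 200, 7 in the knockout and 1 at day 21, with none lower. The shares of all tested genes that were higher were 23.7%, 28.4%, 19.3% and 6.2% in that order. The largest differences at day 45 were those of Pdgfa (1.43 ± 0.30, adjusted p = 0.00397), Pdgfb (1.39 ± 0.34, adjusted p = 0.0103) and Tgfb3 (1.34 ± 0.30, adjusted p = 0.00673), all of them growth factors that act on stellate cells.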

How the data were processed

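RNA-seq FPKM of 14 livers were used. The deposited FPKM come from paired-end poly-A libraries that the authors mapped to mm9 with TopHat and quantified with Cufflinks 2.2.1 (upper-quartile scaling), leaving out ribosomal, small nucleolar and mitochondrial sequences. The authors' small RNA values are RPM with 1 added, from Bowtie 0.12.7. Only miR-122 of the 11 floxed livers that also have RNA-seq was read from them, as a share of all listed microRNAs after removing the 1, and 31 other sample columns were not used.

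FPKM are not counts, so limma 3.58.1 in R 4.3.3 was run on log2(FPKM + 1) of the 11354 of 21888 symbols with a mean of at least 1 FPKM over the 14 livers, in 1 fit of 5 groups in which days 100 and 200 form 1 group, with eBayes with trend. Entries of 224 symbols with several were summed. Benjamini-Hochberg adjustment was made within each comparison over all tested genes, with a threshold of 0.05. Each library is taken as a separate mouse. Deviations of same-letter livers correlated between days 21 and 45 (0.272, 0.236 and 0.501 for A, B and C), so that the letters were taken to pair these 2 groups and no others, as a hint from the data and not from the labels. The fit was also run on simulated data, and the outcome is not given here. Fragment numbers were estimated from the steps of low values of genes with 1 coding transcript. Genes are named where they passed in at least 1 comparison with day 0, are a Timp gene or are among the 10 highest, with up to 3 rises and falls at day 45 per pathway list. Other genes of the family, and knockout or replicate details, are given by range, or were picked once their values were known. The genes and all lists were chosen with earlier results of these data known. Alternatives tried were a pseudocount of 0.1, no filter, a day 0 filter, other fits, median-centring, a replicate block and leaving out each library. Python 3.11.15, pandas 2.3.3, numpy 2.4.6, scipy 1.17.1 and matplotlib 3.10.9 were used.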

Additional observations from a re-analysis of the deposited data

Results flagged for a closer look

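The Mmp7 level at day 45 differed from that at day 21 by 2.46 on the log2(FPKM + 1) scale, past the threshold of limma's direct test, a call that was lost with the replicate letter as a block and without 8 of the 14 libraries. The Mmp12 level in the knockout differed from that at day 45 by -2.05, also past the threshold of the direct test. The libraries on which each call rests are given above, and causes were not tested.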

How the results depend on the processing

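Single values under the alternatives were followed for 62 pairs of gene and comparison. These were the tested genes named by the rule above against day 0, and in the direct comparisons only the genes already called. Adamts7 and Adamts13 are therefore not among them, nor are genes that gained a call in a direct comparison. Of these 1350 values, 1230 kept their direction and their side of the threshold, 73 lost a call, 36 gained one and 11 turned sign, none of the last a called value. Mmp14 at day 21 became -0.016 with median-centring and -0.210 without day 0 replicate B. Mmp19 at day 21 became 0.037, 0.088, 0.040 and 0.156 without day 0 replicate A, day 0 replicate C, day 21 replicate B or day 21 replicate C, at days 100 and 200 -0.193 with centring and -0.005 without day 0 replicate B, and in the knockout -0.120 without day 0 replicate B. Adamts1 in the knockout became 0.031 without day 0 replicate C and 0.098 without knockout replicate A. Over all libraries left out in turn, Mmp14 at day 21 ranged from -0.210 to 0.210, Mmp19 at day 21 from -0.235 to 0.156, at days 100 and 200 from -0.005 to 0.256 and in the knockout from -0.120 to 0.132, and Adamts1 in the knockout from -0.126 to 0.098.

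Genes of the family called, out of those tested, were at day 21 0 with the day 0 filter, 5 without a filter, 9 with only the compared libraries and 6 with a pseudocount of 0.1, against 1. With only the compared libraries, 1401 of all 11354 tested genes were higher at day 21, against 704 in the main setting. The number over all genes with a pseudocount of 0.1 is not given here, and the shares over all genes with the day 0 filter and without a filter are given above. At day 45 the genes of the family called were 5 with the day 0 filter and 22 without a filter, against 12, at days 100 and 200 7 and 27, against 14, and in the knockout 6 with the day 0 filter, against 10. Between days 45 and 21 there were 0 with the day 0 filter, without a filter or with only the compared libraries, against 1, and between the knockout and day 45 0 with the day 0 filter and 3 without a filter, against 1. The filters change which genes are tested (10 and 45 of the family, against 17). Other causes were not tested.

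Over all genes, 1774 were called at day 21 with only the compared libraries (865 in the main setting). At days 100 and 200, 1630 were called with day 200 alone and 5816 without a filter (3592), and in the knockout 1109 with only the compared libraries (3833). Between days 45 and 21, 9, 14, 10, 3 and 58 were called with the day 0 filter, centring, no filter, only the compared libraries and a pseudocount of 0.1 (31), and between the knockout and day 45, 405 with centring and 63 with only the compared libraries (1072).

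Leaving out each library gave 0 to 5 genes of the family at day 21, 10 to 12 at day 45, 10 to 15 at days 100 and 200, 7 to 11 in the knockout, 0 to 7 between days 45 and 21 and 0 to 4 between the knockout and day 45, with the highest number in each range without knockout replicate C. Over all genes it gave 243 to 2056, 1781 to 4431, 1626 to 5098, 1630 to 7088, 0 to 1049 and 231 to 5922, the lowest without day 21 replicate C, day 45 replicate B, day 100, knockout replicate B, day 21 replicate C or day 45 replicate B, and knockout replicate B, and the highest without knockout replicate C. A lone library left at days 100 and 200 is assumed to vary like the other groups.

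The same-letter correlation of deviations lay between -0.447 and 0.501 and was above 0.1 in 8 of 18 pairs, and only between days 21 and 45 was it above 0.1 for all 3 letters. With the replicate block, which leaves out days 100 and 200, 2 genes of the family were called at day 21, 11 at day 45, 0 between days 45 and 21, 9 in the knockout and 1 between the knockout and day 45 (1, 6 and 5 of the 10 genes that reach 1 FPKM at day 0, at day 21, at day 45 and in the knockout), and 470 genes in all at day 21, 2663 at day 45, 3019 in the knockout, 1 between days 45 and 21 and 447 between the knockout and day 45. Against the main fit, the block added Adamts1 at day 21 (adjusted p = 0.0336) and at day 45 (adjusted p = 0.0313). It lost Adamts5 (adjusted p = 0.0641) and Mmp23 (adjusted p = 0.0595) at day 45 and Mmp14 in the knockout (adjusted p = 0.0525). With the block and the livers of days 21 and 45 alone, 0 genes of the family and 1 gene in all were called between these days.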
